A study of Mus musculus with 4 samples.

Results

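The genes described here are 52 members of the Wnt signalling pathway of the mouse, chosen by name from a table of 22594 genes. They comprise 14 ligand genes, 18 receptor genes, 14 inhibitor genes, 4 genes of TCF/LEF transcription factors and 2 target genes. RNA was measured in 4 libraries of endometrial cancer cell lines whose source is given as uterine cancer, 2 of the line MECPK and 2 of the line MSH2KO21B, called replicates 1 and 2 here. The labels state no genotype, strain, age, treatment or culture time for either line, so the comparison is between lines, and nothing is read from their names. No label ties the replicates to separate cultures, so the p-values reflect the spread of these particular libraries and that spread may be technical.

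Wnt proteins are secreted, lipid-modified signals. The acyltransferase Porcn attaches a fatty acid to a conserved serine, the carrier Wls takes the modified protein to the cell surface, and the lipid then sits in the groove of a Frizzled receptor. With the co-receptors Lrp5 and Lrp6, Frizzled stops the destruction complex of Axin, Apc and Gsk3 from degrading beta-catenin, which enters the nucleus, binds TCF/LEF factors and switches on targets such as Axin2. Other ligands act through Ror2, Ryk and the planar polarity proteins without beta-catenin. In the uterus, Wnt4, Wnt5a, Wnt7a and Wnt11 are known for roles in the formation of the Mullerian duct and its glands, and in skin Wnt4, Wnt10a and Wnt10b are ligands of the basal layer and hair follicle.

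Values are in TPM, a length-corrected share of each library scaled to a total of 1000000, summed over the transcripts of a gene. Levels of different genes can therefore be compared, but the depth of the libraries is unknown and a gene listed at 0 cannot be told apart from one below the reach of the sequencing. Replicates correlated with r = 0.995 and 0.996 across the 11921 genes tested and libraries of different lines with r = 0.781 to 0.783, where genes are not independent replicates. Of the markers of the labelled tissue, Pax8, Emx2 and the estrogen receptor gene Esr1 were above 1 TPM in both lines. Pax8 had 22.9 and 25.0 TPM in MECPK and 4.15 and 4.93 TPM in MSH2KO21B. Emx2 was also lower in MSH2KO21B, by 3.29-fold (limma adjusted p = 4.2e-04). Esr1 went the other way and was 2.03-fold higher in MSH2KO21B (limma adjusted p = 0.0032). Pax2 and Foxa2 were above 1 TPM in MECPK alone, and the progesterone receptor gene Pgr was listed at 0 in all 4 libraries. Summed over Krt5, Krt14 and Trp63, basal epithelial markers were at 3.04 and 2.69 TPM in MECPK and at 7421 and 7348 TPM in MSH2KO21B. Simple epithelial markers (Epcam, Cdh1, Krt7, Krt8, Krt18 and Krt19) summed to 5290 and 5233 TPM in MECPK and to 345 and 333 TPM in MSH2KO21B. Cdh1 went against that sum, with 100.3 and 99.5 TPM in MECPK and 167 and 165 TPM in MSH2KO21B. The 6 stromal fibroblast markers summed to between 0.50 and 1.02 TPM in every library, with Lum at 0 throughout, and the 3 endothelial markers to at most 2.76 TPM, with Kdr at 0. The 4 immune markers summed to at most 3.54 TPM, nearly all of it Csf1r, with Cd3e at 0. These epithelial markers separated the same libraries as every difference below, and their part in those differences was not tested. In RNA from bulk cells, fewer cells of a type and less RNA per cell cannot be told apart.

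The coding sequence around the serine that Porcn modifies is shown for the 10 ligand genes that passed the filter of 1 TPM in at least 2 libraries, because the lipid placed there is what Wls, Frizzled and the inhibitor Notum act on. The 24 bases are from the GENCODE M21 transcripts of GRCm38, 5′ to 3′ on the coding strand, each within a single coding exon, with the codon of the serine in capitals.
Wnt3a, chr11:59250053-59250076, minus strand: tgccacgggctaTCTggcagctgt
Wnt4, chr4:137296345-137296368, plus strand: tgtcacggggtgTCGggctcctgc
Wnt5a, chr14:28522515-28522538, plus strand: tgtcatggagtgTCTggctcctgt
Wnt6, chr1:74784172-74784195, plus strand: tgccatgggcttTCGggttcctgc
Wnt7a, chr6:91366272-91366295, minus strand: tgccatggtgtgTCAggctcctgt
Wnt7b, chr15:85537812-85537835, minus strand: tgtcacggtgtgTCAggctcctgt
Wnt9a, chr11:59330926-59330949, plus strand: tgccatggtgtgTCTggctcctgc
Wnt10a, chr1:74803156-74803179, plus strand: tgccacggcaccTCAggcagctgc
Wnt10b, chr15:98772878-98772901, minus strand: tgccatggaacgTCAggcagctgc
Wnt11, chr7:98850260-98850283, plus strand: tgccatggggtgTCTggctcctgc
All 14 ligand genes held this stretch, found by translating the coding sequence, and 11 of its 24 bases were the same in all 14. The closely related Wnt7a and Wnt7b, the major ligand genes of MECPK, both used the serine codon TCA, as did Wnt10a and Wnt10b. Any pair of ligands differed at between 1 and 12 of the 24 bases. No stretch of 31 bases from a ligand's coding sequence occurred in the coding sequence of another gene of the table.

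The lines differed in which ligand genes they expressed. Of the 14, 10 were tested, of which 8 were higher and 2 lower in MSH2KO21B, where 46.6% of all genes tested were called higher and 29.7% lower, or 76.2% in either direction. Of these 10, 7 passed the filter through MSH2KO21B alone and so had to differ, and the count supports nothing by itself. In MECPK a pair of genes made up nearly the whole total. Wnt7b (ENSMUSG00000022382.15, chromosome 15, 85535437 to 85582473) was at 173 and 183 TPM and Wnt7a (ENSMUSG00000030093.7, chromosome 6, 91363981 to 91411363) at 100.3 and 111 TPM in its replicates 1 and 2, and together they made up 283 ± 14.3 TPM (SD, n = 2) of a ligand total of 288 ± 13.7 TPM (SD, n = 2). Wnt7b alone was 62.2% and 61.5% of that total. The next ligand in MECPK was Wnt9a, at 3.61 and 2.75 TPM, and the other 11 were each under 1 TPM. In MSH2KO21B the ligand total was 518 ± 23.1 TPM (SD, n = 2), and Wnt7a and Wnt7b contributed 149 ± 3.06 TPM to it (SD, n = 2). The remaining 12 ligands rose from a sum of 4.24 ± 0.66 TPM in MECPK to 369 ± 20.0 TPM in MSH2KO21B (SD, n = 2).

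**Figure D1:**
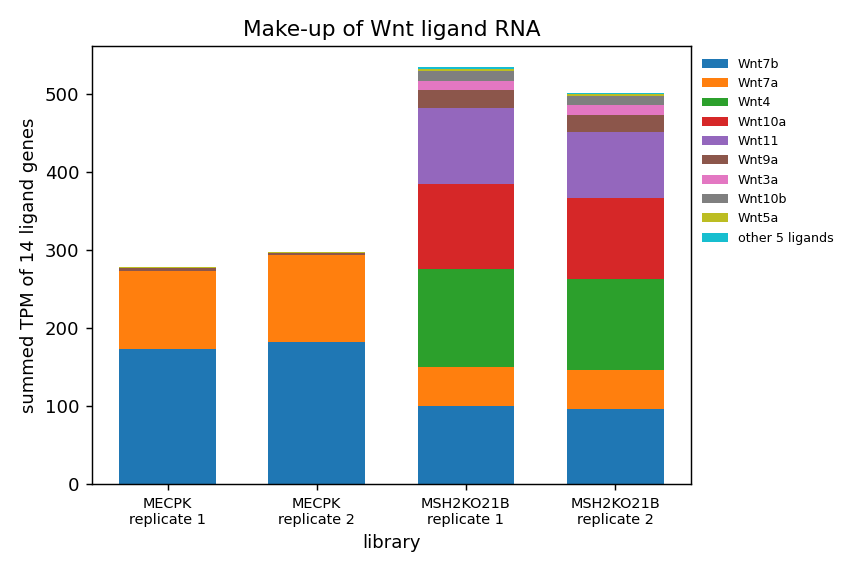
Summed TPM of the 14 Wnt ligand genes in each library, with each bar divided by gene. Wnt7a and Wnt7b fill nearly the whole bar of both MECPK libraries (273 and 293 TPM), whereas Wnt4, Wnt10a and Wnt11 each add between 84.7 and 125 TPM in the MSH2KO21B libraries.

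Wnt4 (ENSMUSG00000036856.4, chromosome 4, 137277489 to 137299726) was the most abundant ligand gene of MSH2KO21B, at 125 and 117 TPM, above 89.0% of the genes tested, and was at 0.22 and 0.20 TPM in MECPK. Wnt10a (ENSMUSG00000026167.14, chromosome 1, 74791516 to 74804179) followed at 109 and 103 TPM, and was listed at 0 and at 0.02 TPM in MECPK. Wnt11 (ENSMUSG00000015957.12, chromosome 7, 98835112 to 98855195), a ligand best known for signalling without beta-catenin, had 97.6 and 84.7 TPM against 0.08 and 0.02 TPM in MECPK. No library of one line overlapped with a library of the other for these ligands. On the log2(TPM + 1) scale, which understates changes of genes near 0, MSH2KO21B exceeded MECPK by 6.73 ± 0.07 for Wnt10a (SE, limma adjusted p = 4.8e-06), by 6.65 ± 0.07 for Wnt4 (SE, limma adjusted p = 4.8e-06) and by 6.45 ± 0.10 for Wnt11 (SE, limma adjusted p = 6.6e-06).

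The other ligands that were higher in MSH2KO21B were less abundant. Wnt3a (ENSMUSG00000009900.7, chromosome 11, 59248033 to 59290752), a classical activator of beta-catenin signalling, had 12.3 and 12.7 TPM in MSH2KO21B and was listed at 0 in each library of MECPK (log2 difference 3.75 ± 0.08, SE, limma adjusted p = 1.1e-05). Wnt10b, the close relative of Wnt10a, had 0.02 and 0 TPM in MECPK and 12.1 and 10.9 TPM in MSH2KO21B (log2 difference 3.62 ± 0.09, SE, limma adjusted p = 1.6e-05). Wnt9a was already present in MECPK and was 6.94-fold higher in MSH2KO21B, at 22.2 and 21.9 TPM (limma adjusted p = 9.9e-05). Wnt5a, a ligand of Ror2, rose from 0.64 and 0.78 TPM to 3.34 and 3.32 TPM, and Wnt6 from 0 in both libraries to 1.62 and 1.22 TPM (limma adjusted p = 2.1e-04 and 5.2e-04). Wnt2, Wnt2b, Wnt3 and Wnt5b stayed at or under 0.22 TPM in all 4 libraries and were not tested.

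Wnt7a and Wnt7b were lower in MSH2KO21B but far from lost. Wnt7a had 49.97 TPM in both MSH2KO21B libraries, 2.11-fold below MECPK (log2 difference -1.06 ± 0.06, SE, limma adjusted p = 1.8e-04). Wnt7b had 101 and 96.5 TPM, 1.80-fold below MECPK (log2 difference -0.84 ± 0.05, SE, limma adjusted p = 2.1e-04). In the order of ligand levels within MSH2KO21B, Wnt4, Wnt10a and Wnt7b did not overlap with each other in their libraries. The libraries of Wnt7b and Wnt11 did overlap. The Wnt11 values include short forms, and its full form of 1062 coding bases had 64.2 and 65.7 TPM, below Wnt7b in both libraries.

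**Figure D2:**
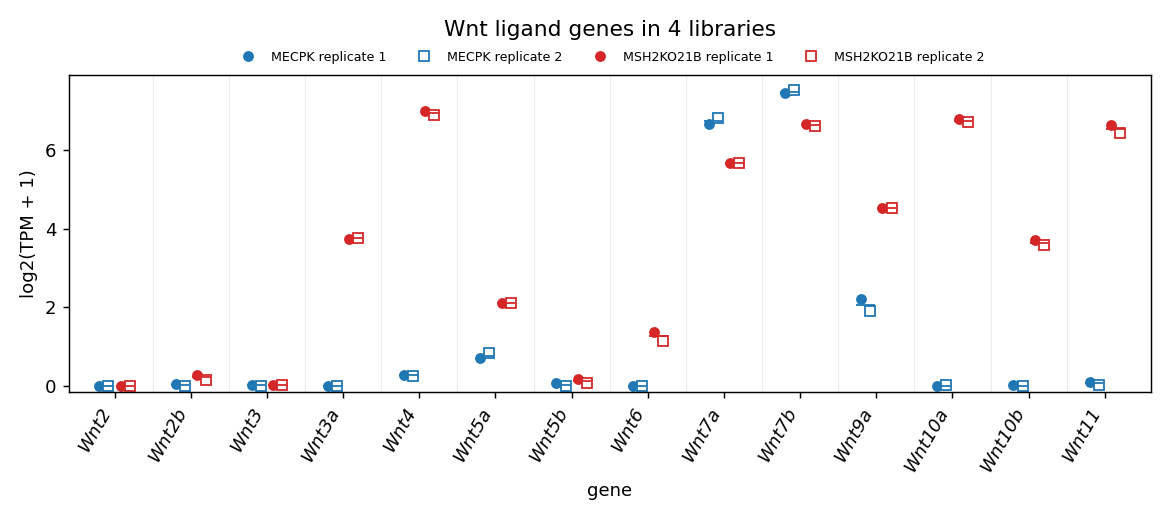
log2(TPM + 1) of the 14 ligand genes in the 4 libraries, with circles for replicate 1, squares for replicate 2, blue for MECPK, red for MSH2KO21B and short lines for the mean of each line. Red points lie above blue ones for 8 of the 10 ligands tested, and below them for Wnt7a and Wnt7b.

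Several ligand genes lie side by side in the genome, as pairs that arose by ancient duplication. Wnt6 and Wnt10a are 6.19 kb apart on chromosome 1 with no coding gene of the table between them, and in MSH2KO21B Wnt6 had 1.62 and 1.22 TPM where Wnt10a had 109 and 103 TPM. Wnt10b lies 11.7 kb from Wnt1 on chromosome 15, and Wnt1 had 0.12 and 0.10 TPM in MSH2KO21B. Wnt3a and Wnt9a, 16.2 kb apart on chromosome 11, were both higher in MSH2KO21B, whereas the pair of Wnt3 and Wnt9b, 24.3 kb apart on the same chromosome, stayed at or under 0.03 TPM in all libraries.

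Of the 18 receptor genes, 13 were tested, of which 8 were higher and 3 lower in MSH2KO21B. Over all genes tested, 46.6% were called higher and 29.7% lower. Among the 8, Fzd9 was of opposite sign after quantile normalization. Fzd7, Fzd9 and Ror2 passed the filter through MSH2KO21B alone and so had to differ, and the count of 8 is partly fixed by the filter. Among the 10 Frizzled genes, which encode the seven-pass receptors of Wnt proteins, the summed level was 42.2 ± 1.95 TPM in MECPK and 50.7 ± 1.11 TPM in MSH2KO21B (SD, n = 2). Fzd1 was the most abundant in MECPK, at 17.0 and 18.6 TPM, with 41.6% and 42.7% of the Frizzled total. In MSH2KO21B Fzd1 had 14.1 and 13.9 TPM and Fzd2 had 14.8 and 13.7 TPM, so their libraries overlapped. Fzd1 was lower in MSH2KO21B by a log2 difference of -0.33 ± 0.07 (SE, limma adjusted p = 0.0138), a call lost without MSH2KO21B replicate 1 (adjusted p = 0.0942) or replicate 2 (adjusted p = 0.108), and Fzd2 was higher by 0.49 ± 0.07 (SE, limma adjusted p = 0.0036). The largest Frizzled difference was in Fzd7, which had 0.65 and 0.93 TPM in MECPK and 5.44 and 5.29 TPM in MSH2KO21B (log2 difference 1.83 ± 0.11, SE, limma adjusted p = 1.6e-04). Between 2.08% and 4.11% of the 31-base words of Fzd1, Fzd2 and Fzd7 occurred in another of the 3, so their values depend slightly on how shared reads were divided. Fzd6, a receptor of planar polarity, had 5.92 and 5.88 TPM in MECPK and 10.8 and 11.3 TPM in MSH2KO21B, 1.87-fold higher (limma adjusted p = 6.0e-04). Fzd5 went the other way, from 5.31 and 5.56 TPM to 3.44 and 3.22 TPM, 1.63-fold lower (limma adjusted p = 0.0027). Fzd9, at 0.39 and 0.60 TPM against 1.31 and 1.18 TPM, was called higher (0.59 ± 0.11, SE, limma adjusted p = 0.0062) but had the opposite sign after quantile normalization (-0.19, adjusted p = 0.188). Fzd4 (1.27 and 1.50 against 1.12 and 1.05 TPM) was not called (limma adjusted p = 0.118), but was called lower after quantile normalization (-0.87, adjusted p = 0.0012) and after median-ratio scaling (-0.27, adjusted p = 0.0434). Fzd3, Fzd8 and Fzd10 were under 0.6 TPM everywhere and were not tested.

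The co-receptors of the beta-catenin branch moved in opposite directions. Lrp5 had 61.1 and 65.3 TPM in MECPK and 42.1 and 41.0 TPM in MSH2KO21B, a 1.52-fold lower level (log2 difference -0.59 ± 0.06, SE, limma adjusted p = 7.7e-04). Lrp6 had 7.06 and 9.11 TPM in MECPK and 13.0 and 12.9 TPM in MSH2KO21B, a 1.60-fold higher level (log2 difference 0.63 ± 0.13, SE, limma adjusted p = 0.0096). The Lrp6 call was lost without MSH2KO21B replicate 1 (limma adjusted p = 0.0990) or replicate 2 (limma adjusted p = 0.0946). Lrp5 remained above Lrp6 in every library.

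Of the 3 receptor genes of branches that do not use beta-catenin, Ryk and Ror2 were higher in MSH2KO21B and Ror1 was not tested. Ryk (ENSMUSG00000032547.12, chromosome 9, 102834917 to 102908305), a pseudokinase receptor, was the most abundant receptor gene of that line, at 171 and 172 TPM against 64.1 and 62.2 TPM in MECPK. That was a 2.71-fold difference (log2 difference 1.42 ± 0.05, SE, limma adjusted p = 3.0e-05). Ror2, a receptor kinase that binds Wnt5a, rose from 0.03 and 0.01 TPM to 6.94 and 7.06 TPM (log2 difference 2.97 ± 0.08, SE, limma adjusted p = 1.9e-05). Its relative Ror1 had 0.51 and 0.47 TPM in MECPK and 0.03 and 0.10 TPM in MSH2KO21B, under the filter, and without a filter it was called lower (log2 difference -0.48, limma adjusted p = 0.0023).

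Receptors for R-spondins, the secreted proteins that amplify Wnt signals by removing the ubiquitin ligases Rnf43 and Znrf3, were of a different make-up in each line. Lgr4 had 4.20 and 4.41 TPM in MECPK and 26.6 and 26.9 TPM in MSH2KO21B, a 6.21-fold higher level (log2 difference 2.39 ± 0.07, SE, limma adjusted p = 2.4e-05). Lgr6, at 21.3 and 21.5 TPM in MECPK and 19.8 and 19.2 TPM in MSH2KO21B, was not called (log2 difference -0.13 ± 0.06, SE, limma adjusted p = 0.101), although quantile normalization and median-ratio scaling each called it lower. The Lgr6 total hid a difference in coding forms. A form of 2070 coding bases had 6.85 and 5.87 TPM in MECPK against 2.18e-10 and 0 TPM in MSH2KO21B, while the form of 2901 bases had 14.5 and 15.7 TPM in MECPK and 19.8 and 19.2 TPM in MSH2KO21B. Lgr5, a stem cell marker and Wnt target, was at or under 0.03 TPM throughout.

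**Figure D3:**
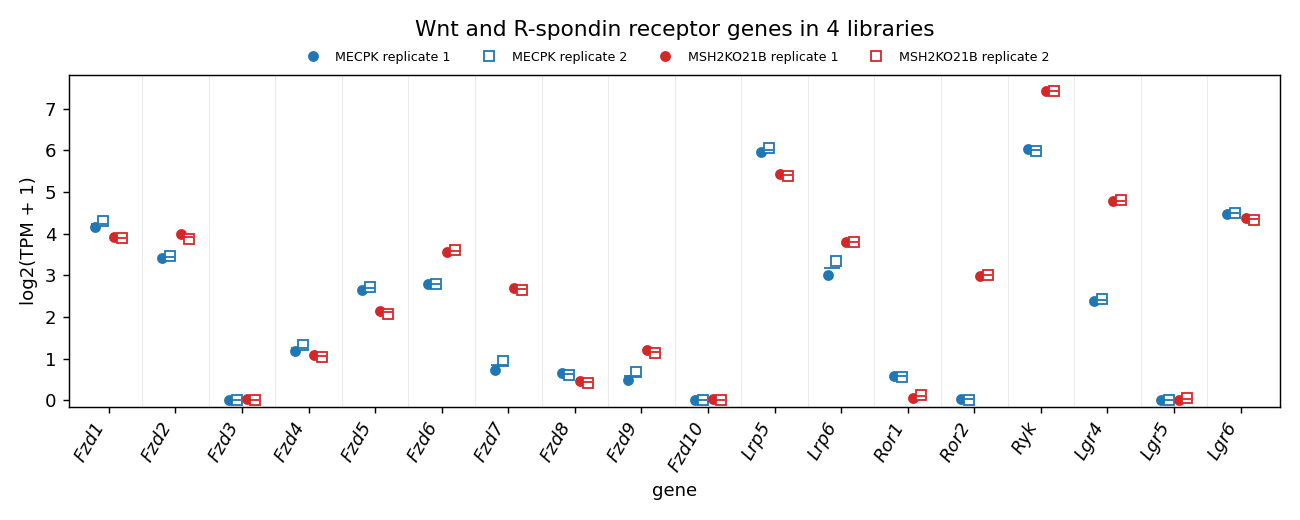
log2(TPM + 1) of the 18 receptor genes in the 4 libraries, with circles for replicate 1, squares for replicate 2, blue for MECPK, red for MSH2KO21B and short lines for the mean of each line. Ryk and Lrp5 are the highest receptors of both lines, and Fzd7, Ror2 and Lgr4 show the widest gaps between red and blue points, whereas the small gap of Fzd9 changed its sign after quantile normalization.

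Of the 7 secreted and 3 membrane inhibitor genes, 4 were called higher in MSH2KO21B, 1 lower and 1 in neither direction, and 4 were not tested, where 46.6% of all genes tested were called higher and 29.7% lower. Dkk3, Wif1 and Rnf43, which are among the 4, passed the filter through MSH2KO21B alone and so had to differ. Dkk3 (ENSMUSG00000030772.6, chromosome 7, 112116017 to 112159057), a divergent member of the Dickkopf family, was listed at 0 and at 0.03 TPM in MECPK and had 42.2 and 42.1 TPM in MSH2KO21B (log2 difference 5.41 ± 0.07, SE, limma adjusted p = 5.9e-06). Wif1, which binds Wnt proteins, was listed at 0 and at 0.02 TPM in MECPK and had 17.5 and 16.5 TPM in MSH2KO21B. Notum, the esterase that removes the lipid from the serine shown above, was 4.49-fold higher, at 5.14 and 4.90 TPM against 1.08 and 1.15 TPM (log2 difference 1.51 ± 0.08, SE, limma adjusted p = 1.2e-04). Dkk1, Dkk2 and Sfrp2 were listed at 0 in all 4 libraries, and Sfrp1 was at or under 0.18 TPM.

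The membrane inhibitors were split. Rnf43, a ubiquitin ligase that removes Frizzled from the surface, had 0.50 TPM in both MECPK libraries and 10.6 and 10.5 TPM in MSH2KO21B (log2 difference 2.95 ± 0.08, SE, limma adjusted p = 1.8e-05). Its relative Znrf3 had 5.31 and 8.07 TPM in MECPK and 8.55 and 7.81 TPM in MSH2KO21B, so the lines overlapped and no difference was called (log2 difference 0.28 ± 0.19, SE, limma adjusted p = 0.242). Without MECPK replicate 2 the Znrf3 difference was 0.54 (limma adjusted p = 0.0221). Apcdd1, which binds Wnt proteins and Lrp co-receptors, fell from 4.37 and 5.01 TPM in MECPK to 0.67 and 0.50 TPM in MSH2KO21B (log2 difference -1.84 ± 0.11, SE, limma adjusted p = 1.6e-04).

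Genes of the destruction complex were expressed in both lines. Gsk3b, the kinase that marks beta-catenin for degradation, was 2.44-fold higher in MSH2KO21B, at 79.4 and 83.7 TPM against 32.6 and 34.4 TPM (log2 difference 1.26 ± 0.06, SE, limma adjusted p = 8.5e-05). The scaffold gene Axin1 was 1.67-fold lower, at 15.1 and 14.6 TPM against 25.2 and 24.3 TPM (log2 difference -0.70 ± 0.06, SE, limma adjusted p = 6.0e-04). Apc, the tumour suppressor of the complex, had 8.29 and 9.88 TPM in MECPK and 14.8 and 14.6 TPM in MSH2KO21B (log2 difference 0.64 ± 0.10, SE, limma adjusted p = 0.0039), a call lost without MSH2KO21B replicate 1 (adjusted p = 0.0598) or replicate 2 (adjusted p = 0.0581). Nkd1, a feedback inhibitor that binds Dishevelled, was listed at 0 in all 4 libraries.

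The nuclear end of the pathway also differed. The summed level of the 4 TCF/LEF genes was 7.84 ± 0.24 TPM in MECPK and 34.1 ± 0.01 TPM in MSH2KO21B (SD, n = 2). Tcf7 had 2.12 and 1.95 TPM in MECPK and 18.1 and 17.8 TPM in MSH2KO21B, 8.83-fold higher. Only 1 coding form of Tcf7, of 909 bases, was there to compare, so its share of the total carries no information. Tcf7l1, a factor known mainly as a repressor, had 0.06 and 0.03 TPM in MECPK and 6.31 and 5.91 TPM in MSH2KO21B (log2 difference 2.77 ± 0.08, SE, limma adjusted p = 2.6e-05). Tcf7l2, the main TCF of intestinal epithelium, had 5.21 and 5.28 TPM in MECPK and 9.71 and 10.4 TPM in MSH2KO21B, 1.92-fold higher (log2 difference 0.82 ± 0.08, SE, limma adjusted p = 6.8e-04). Lef1 was the exception, at 0.63 and 0.42 TPM in MECPK and 0.03 and 0.06 TPM in MSH2KO21B, and was not tested. Of the 20 members at a mean of 1 TPM or more in both lines, Tcf7l2 was the only one whose leading coding form differed between the lines, and its leading forms held 34.9% of its TPM in MECPK and 35.4% in MSH2KO21B. MECPK replicates put 47.6% and 22.3% of Tcf7l2 in the form leading that line, so this difference was no larger than the spread between replicates. Among the 20, Fzd1, Fzd2, Fzd4, Fzd5, Fzd6, Lrp6, Tcf7 and Wnt7a had only 1 form to compare, so their leading form could not differ.

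Axin2 (ENSMUSG00000000142.15, chromosome 11, 108920349 to 108950783), the target most often read as output of beta-catenin signalling, was listed at 0 and at 0.32 TPM in MECPK and had 41.1 and 37.7 TPM in MSH2KO21B (log2 difference 5.13 ± 0.16, SE, limma adjusted p = 2.8e-05). The gene total was made up unevenly. The full form of 2520 coding bases had 16.8 and 17.6 TPM in MSH2KO21B and was listed at 0 in both MECPK libraries. A short incomplete form of 207 coding bases had 20.1 and 16.0 TPM in MSH2KO21B and held all of the 0.32 TPM in MECPK replicate 2. With complete coding sequences only, an alternative chosen after seeing the data, the log2 difference was 4.22 (limma adjusted p = 2.3e-06). Wnt11 also had short forms, and its full form of 1062 coding bases had 64.2 and 65.7 TPM in MSH2KO21B, 65.8% and 77.5% of the gene's value. Sp5, another direct target of beta-catenin signalling, was at or under 0.04 TPM in every library. Of 10 members known as feedback targets of the pathway, 6 were tested, 4 of which were higher (Axin2, Rnf43, Notum and Tcf7), 1 was lower (Apcdd1) and 1 was not called (Znrf3), where 46.6% of all genes tested were called higher and 29.7% lower. Axin2 and Rnf43 passed the filter through MSH2KO21B alone and Apcdd1 through MECPK alone.

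**Figure D4:**
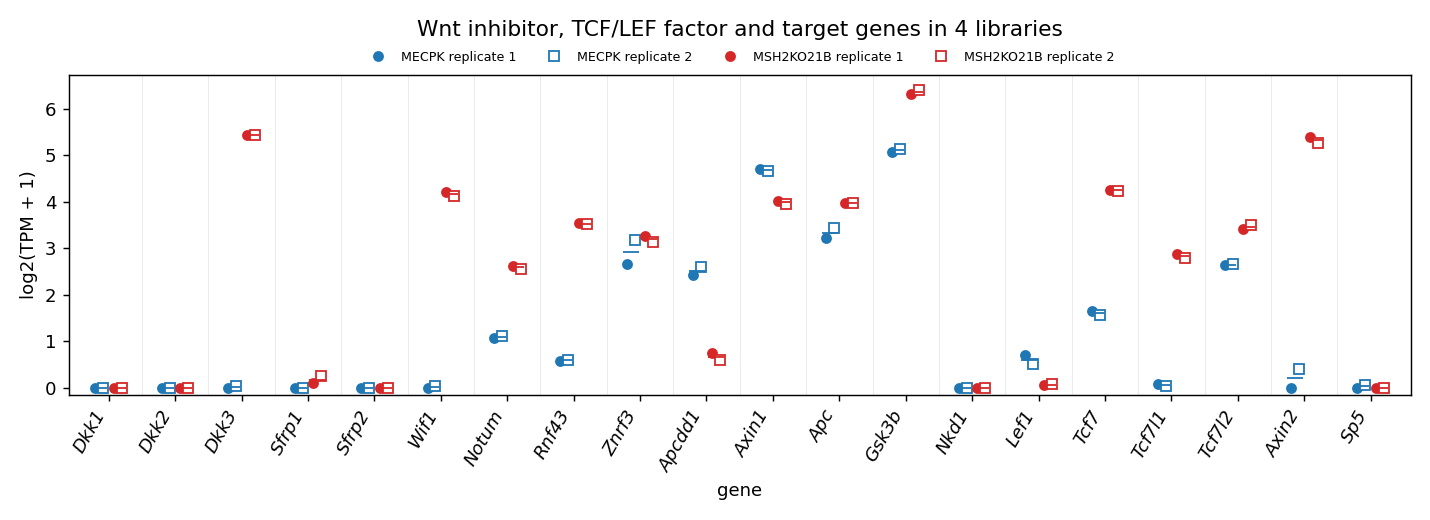
log2(TPM + 1) of the 14 inhibitor, 4 TCF/LEF factor and 2 target genes in the 4 libraries, with circles for replicate 1, squares for replicate 2, blue for MECPK, red for MSH2KO21B and short lines for the mean of each line. Dkk3, Wif1 and Axin2 are near 0 in MECPK and at 16.5 TPM or more in MSH2KO21B, Apcdd1 and Axin1 are lower in MSH2KO21B, and the points of Znrf3 overlap.

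TCF/LEF factors bind a short core sequence, and the 250 bases before the start sites of the members were searched for CTTTGAA and CTTTGAT, and also for CTTTGTA and CTTTGTT, on both strands. RefSeq promoter sequences (GRCm38.p6) were matched for 35 members, with 44 start sites. Of these, 7 held a match (15.9%), against 14.8% of the 32851 promoters of the RefSeq table, and the window of Axin2 held none. The 7 were windows of Dkk1, Fzd7, Lef1, Sp5, Tcf7l2, Wnt11 and Wnt5b. Among start sites of members called higher, 3 of 22 held a match (13.6%), and among those called lower 0 of 3 did. The windows of Sp5, the target at or near 0 in all libraries, and of Wnt11 and Fzd7, both higher in MSH2KO21B, are shown 5′ to 3′ on the strand of the gene, with matches in capitals, so that members at high and at low levels can be compared.
Sp5, chr2:70474673-70474922, plus strand: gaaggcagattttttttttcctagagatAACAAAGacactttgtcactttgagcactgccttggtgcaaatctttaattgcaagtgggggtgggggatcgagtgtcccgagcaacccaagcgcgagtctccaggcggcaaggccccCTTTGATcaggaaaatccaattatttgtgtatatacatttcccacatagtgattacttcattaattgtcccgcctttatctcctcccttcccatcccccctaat
Wnt11, chr7:98834862-98835111, plus strand: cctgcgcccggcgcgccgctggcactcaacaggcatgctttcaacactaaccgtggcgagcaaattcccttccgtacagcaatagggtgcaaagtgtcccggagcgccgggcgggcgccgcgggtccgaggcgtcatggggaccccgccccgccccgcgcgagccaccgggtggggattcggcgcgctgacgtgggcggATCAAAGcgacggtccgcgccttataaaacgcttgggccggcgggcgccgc
Fzd7, chr1:59481897-59482146, plus strand: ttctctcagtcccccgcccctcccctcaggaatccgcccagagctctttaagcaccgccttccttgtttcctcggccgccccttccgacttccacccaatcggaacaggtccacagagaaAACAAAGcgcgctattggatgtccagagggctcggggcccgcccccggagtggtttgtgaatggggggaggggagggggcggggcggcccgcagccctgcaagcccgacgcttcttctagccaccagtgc
Sp5 had matches that began 222 and 104 bases before its start, Wnt11 had 1 that began 51 bases before and Fzd7 had 1 that began 130 bases before. A match in these letters describes the sequence and does not mark a bound site.

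The members were then counted against all genes. The filter of 1 TPM in at least 2 libraries left 36 of the 52 members, and the 16 that did not pass reached at most 0.63 TPM (Lef1). Of the 36, 26 were called higher and 7 lower in MSH2KO21B, against the 46.6% and 29.7% of all genes given above. The 3 members not called were Fzd4, Lgr6 and Znrf3. The split over all genes was 5550 higher and 3538 lower, and it was 4246 and 4577 after quantile normalization, under which 25 members were higher and 9 lower and the median of all genes moved from 0.19 to -0.03. The lines did not overlap in 26 members that were higher and 9 that were lower, as held for 88.9% of all genes tested. The median log2 difference was 1.31 over the 36 members and 0.19 over all genes tested, so 1.11 relative to that median. Of the 36, 15 had passed through MSH2KO21B with at least 1 MECPK library under 1 TPM, and 1, Apcdd1, through MECPK, so that they had to differ. Among the 20 members at 1 TPM or more in all 4 libraries, 11 were higher and 6 lower with a median of 0.56, against 43.4% and 29.5% of the 10085 such genes with a median of 0.14.

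**Figure D5:**
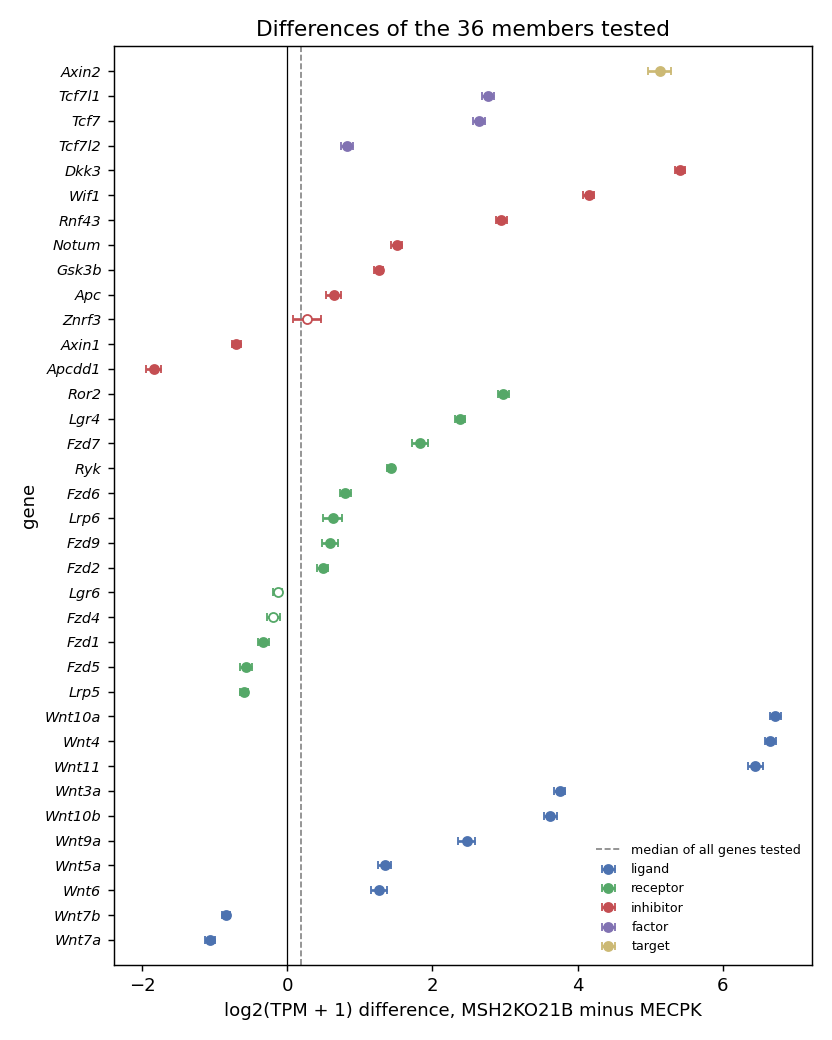
Difference in log2(TPM + 1), MSH2KO21B minus MECPK, of the 36 members tested, ordered by role, with bars for the moderated SE of limma, open symbols for members not called and a dashed line at the median of all genes tested (0.19). Wnt10a, Wnt4 and Wnt11 lie above 6 and Apcdd1 is the lowest at -1.84, while Fzd9 is higher here and lower after quantile normalization.

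Other genes of the pathway were taken from a list of 88, 54 of which could be tested, and 36 of those were higher and 11 lower in MSH2KO21B, where 46.6% of all genes tested were called higher and 29.7% lower. Of the 36, Sostdc1, Frat2, Vangl2, Celsr2 and Bmp4 passed the filter through MSH2KO21B alone and so had to differ. Of the 11, Tle4 passed through MECPK alone. The genes that make Wnt proteins ready for export were both higher. Porcn rose from 7.23 and 9.15 TPM to 65.1 and 55.9 TPM (log2 difference 2.75 ± 0.14, SE, limma adjusted p = 1.0e-04), and Wls from 51.2 and 49.2 TPM to 237 and 205 TPM (log2 difference 2.11 ± 0.08, SE, limma adjusted p = 5.3e-05). The largest difference was in Sostdc1, a secreted antagonist of Wnt and BMP signals, which was listed at 0 and at 0.05 TPM in MECPK and had 279 and 278 TPM in MSH2KO21B (log2 difference 8.09 ± 0.07, SE, limma adjusted p = 3.8e-06). All 4 R-spondin genes were at or under 0.06 TPM and not tested, while their receptor genes Lgr4 and Lgr6 were at 4.20 TPM or more in every library.

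Planar polarity genes orient cells within an epithelium. Of 10 tested, 7 were higher and 1 lower, against 46.6% and 29.7% of all genes tested. Vangl2 and Celsr2, among the higher ones, passed the filter through MSH2KO21B alone and so had to differ. Prickle1, also among the higher ones, was at 0.90 TPM in MECPK replicate 1. After quantile normalization Prickle1 was of opposite sign and not called. The lower gene, Rhoa, lost its call without MECPK replicate 1 (limma adjusted p = 0.0588) or MSH2KO21B replicate 1 (limma adjusted p = 0.0826). Scrib and Rac1, not called here, were each called lower under median-ratio scaling and under quantile normalization. Vangl2 rose from 0.91 and 0.61 TPM to 23.9 and 25.9 TPM, Celsr2 from 0.04 TPM in both libraries to 10.3 and 9.81 TPM, and Celsr1 from 2.72 and 3.05 TPM to 26.6 and 24.8 TPM (log2 differences 3.88, 3.42 and 2.78). Among cytoplasmic proteins that bind Dishevelled, Dact2 (3.40), Cxxc5 (2.04) and Nkd2 (1.78) were higher on the log2 scale. Nkd2 thus had 79.6 and 82.9 TPM in MSH2KO21B where its relative Nkd1 was listed at 0. Among nuclear partners, 11 were tested, of which 5 were higher and 4 lower, against 46.6% and 29.7% of all genes tested. The corepressor gene Tle4 fell from 6.76 and 6.31 TPM to 0.59 and 0.49 TPM (log2 difference -2.29 ± 0.09, SE, limma adjusted p = 4.9e-05). Tle4 passed the filter through MECPK alone and so had to differ. Of the other Tle genes, Tle2 (-1.10) was also lower on the log2 scale, whereas Tle1 (0.53) and Tle3 (1.20) were higher. Of 12 other targets, 6 were tested, of which 5 were higher and 1 lower, where 46.6% and 29.7% of all genes tested were called. Bmp4, among the higher targets, passed the filter through MSH2KO21B alone and so had to differ. Bmp4 and Id2 were higher by 2.57 and 2.21 on the log2 scale, and the lower one was Myc (log2 difference -0.55 ± 0.06, SE, limma adjusted p = 0.0011), named after its value was seen. Ctnnb1, which encodes beta-catenin, had 557 and 569 TPM in MECPK and 826 and 791 TPM in MSH2KO21B (log2 difference 0.52 ± 0.05, SE, limma adjusted p = 6.2e-04), but with complete coding sequences only its difference was 0.20 and was not called (limma adjusted p = 0.0523).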

How the data were processed

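RNA of 4 libraries was analysed. The deposited table holds TPM per Ensembl transcript, and each column summed to 1000000. The submitters' processing notes name kallisto 0.43.1 and the build GRCm38, and the transcript set is not given in the sources used here. Within a gene, protein-coding transcripts with the same coding sequence and different transcript sequences had equal TPM (within 0.1%) in all libraries in 6640 of 6662 pairs, against 83 of 41360 pairs with different coding sequences, so forms that differ only in untranslated regions were not resolved. Levels of such transcripts are probably per coding length, which the sources do not state. Transcripts without a coding sequence had values too, such as a retained-intron form of Tcf7l2 at 0.92 and 1.08 TPM in MECPK.

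Transcripts were paired with GENCODE M21 genes by identifier without version (60503 of 61440; unmatched transcripts held 0.733% to 0.944% of TPM), and TPM was summed per gene. The filter kept genes reaching 1 TPM in 2 or more libraries. Their log2(TPM + 1) values were fitted with limma 3.58.1 in R 4.3.3, using its intensity trend and a single term for line, with Benjamini-Hochberg adjustment over all genes tested at 0.05. The fit was tested on simulated data. TPM keeps no depth, so no counting interval was computed.

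All members were described, and of the other pathway genes the 12 with the largest called differences, Ctnnb1, Porcn and Wls. Outside this rule, Myc, Rhoa, Prickle1, Scrib, Rac1, Amer1, Frat2 and the other Tle genes were named after their values were seen. Wnt1 and Wnt9b were named as neighbours of members, and the R-spondin genes as a group. Members, lists and tests were chosen with earlier results of these data known. Alternatives were limma without the trend, quantile normalization, median-ratio scaling, a pseudocount of 0.1, no filter, genes reaching 10 TPM, a replicate block, each library left out, protein-coding transcripts only, limma's treat and, added after seeing the data, complete coding sequences only.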

Additional observations from a re-analysis of the deposited data

How the results depend on the processing

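Of the 36 members tested, 29 kept their direction and their side of the threshold under each alternative that gave them a value (the filter of 10 TPM gave one for 24 of the 36) with 1 exception, the treat test of limma for changes beyond 1 on the log2 scale, and the 7 that did not were Fzd1, Fzd4, Fzd9, Lrp6, Lgr6, Znrf3 and Apc. Under treat 13 members lost their call, as its construction asks for a larger difference. Of the 54 other pathway genes tested, 35 kept direction and side of the threshold with treat set aside, and 19 did not. Under treat 30 of these genes lost their call. With quantile normalization 30 of the other pathway genes were higher and 14 lower. Treat left 1 member lower, 1519 and 924 of all genes higher and lower, and 14 and 3 of the other pathway genes. After quantile normalization the signs of Fzd9 (-0.19), Amer1 (-0.093) and Prickle1 (-0.12) were reversed, and the cause was not tested. With each library left out in turn, 24 to 27 members were higher and 6 to 7 lower, and the other pathway genes numbered 32 to 36 higher and 7 to 10 lower, lowest without MSH2KO21B replicate 1. Replicate numbers are not stated to pair the libraries, and deviations of same-numbered libraries correlated with r = 0.016. With the replicate block, 26 members were higher and 7 lower, and no member changed its call. Without a filter 10 members were called lower, among them Lef1, Ror1 and Fzd8, which are all under 1 TPM. The unknown depth limits statements about genes listed at 0, and with 2 libraries a line the fit had 2 residual degrees of freedom.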
